A study of Arabidopsis thaliana with 48 samples.

Results

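Genes for co-chaperones and for basal or acquired thermotolerance, 9 in all, were followed through nuclear and cytoplasmic RNA of Arabidopsis thaliana, before and during heat. They were taken from the count table by locus identifier, as 9 of its 27420 genes, and all 9 were among the 17981 genes that passed the filter on low counts. The genes are ROF1 (AT3G25230), ROF2 (AT5G48570), HOP1 (AT1G12270), HOP2 (AT1G62740), HOP3 (AT4G12400), BAG6 (AT2G46240), FES1A (AT3G09350), HSA32 (AT4G21320) and AT2G20560, a DNAJ gene with no symbol of its own. RNA came from plants aged 14 d, grown in long days and labelled as rosettes or seedling. They were of the wild type Col-0 and of tho5ab, a double mutant in both genes for subunit 5 of the THO complex. That complex is loaded on nascent mRNA and acts in its export. Control plants were kept at 21 °C, heated ones were moved to 37 °C for 3 h and taken with no recovery, and nuclei and cytoplasm were parted by differential centrifugation. Each of the 8 combinations of genotype, temperature and fraction has 6 libraries, and the series asks how mRNA export in tho5ab bears on the heat response. The labels give neither the mutant alleles nor whether the libraries of a group came from separate plants, so the p-values measure the spread between libraries.

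Heat unfolds proteins, and the HSP70 and HSP90 chaperones that bind them work in cycles of ATP binding and release that co-chaperones steer. J-domain (DNAJ) proteins hand clients to HSP70 and speed its ATP hydrolysis, nucleotide exchange factors such as FES1A and BAG-domain proteins reset it, and HOP proteins bridge HSP70 to HSP90, where large immunophilins such as ROF1 and ROF2 join. In Arabidopsis, heat shock transcription factors of the A class switch on many of these genes within the first hours of heat, at heat shock elements made of alternating GAA and TTC units.

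Cytoplasmic libraries held 1025185 to 2174279 counts and nuclear ones 2601946 to 19914838, so low levels are far better resolved in nuclei. Levels are CPM, a gene's counts scaled to a TMM-adjusted library total of 1e+06, given as the mean ± SD of 6 libraries or as the lowest, median and highest library. They are shares of the RNA of a fraction, so a difference between nuclei and cytoplasm is one of relative level, not of molecules per cell. Changes are log2 fold changes ± an approximate standard error (SE) from edgeR's quasi-likelihood fit to all 48 libraries, with p-values adjusted over the 17981 genes and a threshold of 0.05. As bulk samples, they cannot tell fewer cells of a type from less RNA per cell. THO5B was lower in every tho5ab library than in any Col-0 library of the same fraction and temperature, with 0 counts in all 12 cytoplasmic ones. THO5A went against the label in nuclei at 21 °C, with 98.5 ± 18.3 CPM in tho5ab and 34.3 ± 2.55 CPM in Col-0, and with it at 37 °C, with 39.8 ± 39.6 and 185 ± 11.9 CPM and no overlap, the highest tho5ab library, replicate 7, being at 118 CPM. The 5 leaf mesophyll markers were all present, summing to 74265 to 157788 CPM in Col-0 cytoplasm at 21 °C and 31953 to 43616 CPM at 37 °C. In nuclei they summed to between 1519 and 3074 CPM. The 5 root markers summed to 258 to 619 CPM in Col-0 cytoplasm at 21 °C and 48.7 to 148 CPM at 37 °C, and the part of these markers in the results was not tested. The 4 guard cell markers summed to 14.8 to 81 CPM in cytoplasm and 89.5 to 475 CPM in nuclei, the 3 phloem markers to 45 to 170.1 CPM and 35.6 to 96.8 CPM, and of the 3 shoot meristem markers CLV3 and WUS had no count in cytoplasm. In 16 of the 48 libraries, spread over all 8 groups, genes nested on the opposite strand of another gene had high counts, so each call that ends without them is given as such.

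The starts of the genes were searched for the letters of the element that heat shock factors bind. ROF2, HOP1, HOP2 and AT2G20560 held no match. The letters and all positions are those of the TAIR10.1 reference (RefSeq), while the counts were made on TAIR10, and 5 of the 9 genes held at least 2 alternating units between 250 bases before and 50 bases after the annotated start. Lines are written 5′ to 3′ on the strand of the gene, 30 bases each, with the matched units in capitals.
ROF1, chr3:9188111-9188140, forward strand, first capital 27 bases into the transcript: gatcatctgtgTTCTCGAAccatcttttta
HOP3, chr4:7341350-7341379, reverse strand, first capital 5 bases before the start: cggctacaaaaGAACATTCtcgacatacac
HOP3, chr4:7341319-7341348, reverse strand, first capital 25 bases into the transcript: aaaaaattcGAAATTTCGAGAActctcttg
BAG6, chr2:18986088-18986117, forward strand, first capital 34 bases before the start: agaaacgaagaGAAAATTCcagatttttca
FES1A, chr3:2870896-2870925, forward strand, first capital 63 bases before the start: aaaaaggtaaaTTCAAGAAaggcttatcga
HSA32, chr4:11340332-11340361, forward strand, first capital 19 bases before the start: agagtaacaaaTTCGAGAAcatgacgtggc
The motif with 2 units was GAANNTTC or TTCNNGAA on either strand, and 19% of 17980 promoters of that window held it. With 3 units, GAA, TTC and GAA or TTC, GAA and TTC, each parted by NN, a motif that contains the shorter one, it was found in HOP3 alone among the 9 and in 0.573% of promoters. That window was chosen after the 250 bases upstream alone had been read, where 3 of the 9 genes held 2 units against 15.8% of promoters and 0 of the 9 held 3 units against 0.428%. A match is a run of letters and not a measured binding site.

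In unheated cytoplasm the 9 genes split into 3 abundant genes and 6 with few counts. In Col-0 cytoplasm at 21 °C the level per kb of exon was 105 ± 15.6 CPM for HOP2, 95.8 ± 20 CPM for ROF1 and 69.7 ± 12.6 CPM for HOP1, and the ranges of neighbours in that order overlapped. FES1A followed at 10.4 ± 4.02 CPM per kb, with no overlap with HOP1, and ROF2, BAG6, AT2G20560 and HOP3 lay between 5.36 and 3.56 CPM per kb with overlapping ranges. HSA32 had no count in any of the 6 libraries. The split was less sharp in Col-0 nuclei at 21 °C, where HOP1 stood at 16.5 CPM per kb, BAG6 at 11.4 CPM per kb on 5213 counts and FES1A at 3.63 CPM per kb. After 3 h at 37 °C the order had turned over. ROF2 led at 4512 ± 508 CPM per kb, above every library of the next gene, HOP3, at 1079 ± 141 CPM per kb, while HOP1 was lowest at 129 ± 23.8 CPM per kb. The same gene led and the same gene was last in tho5ab cytoplasm and in the nuclei of both genotypes at 37 °C.

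**Figure D1:**
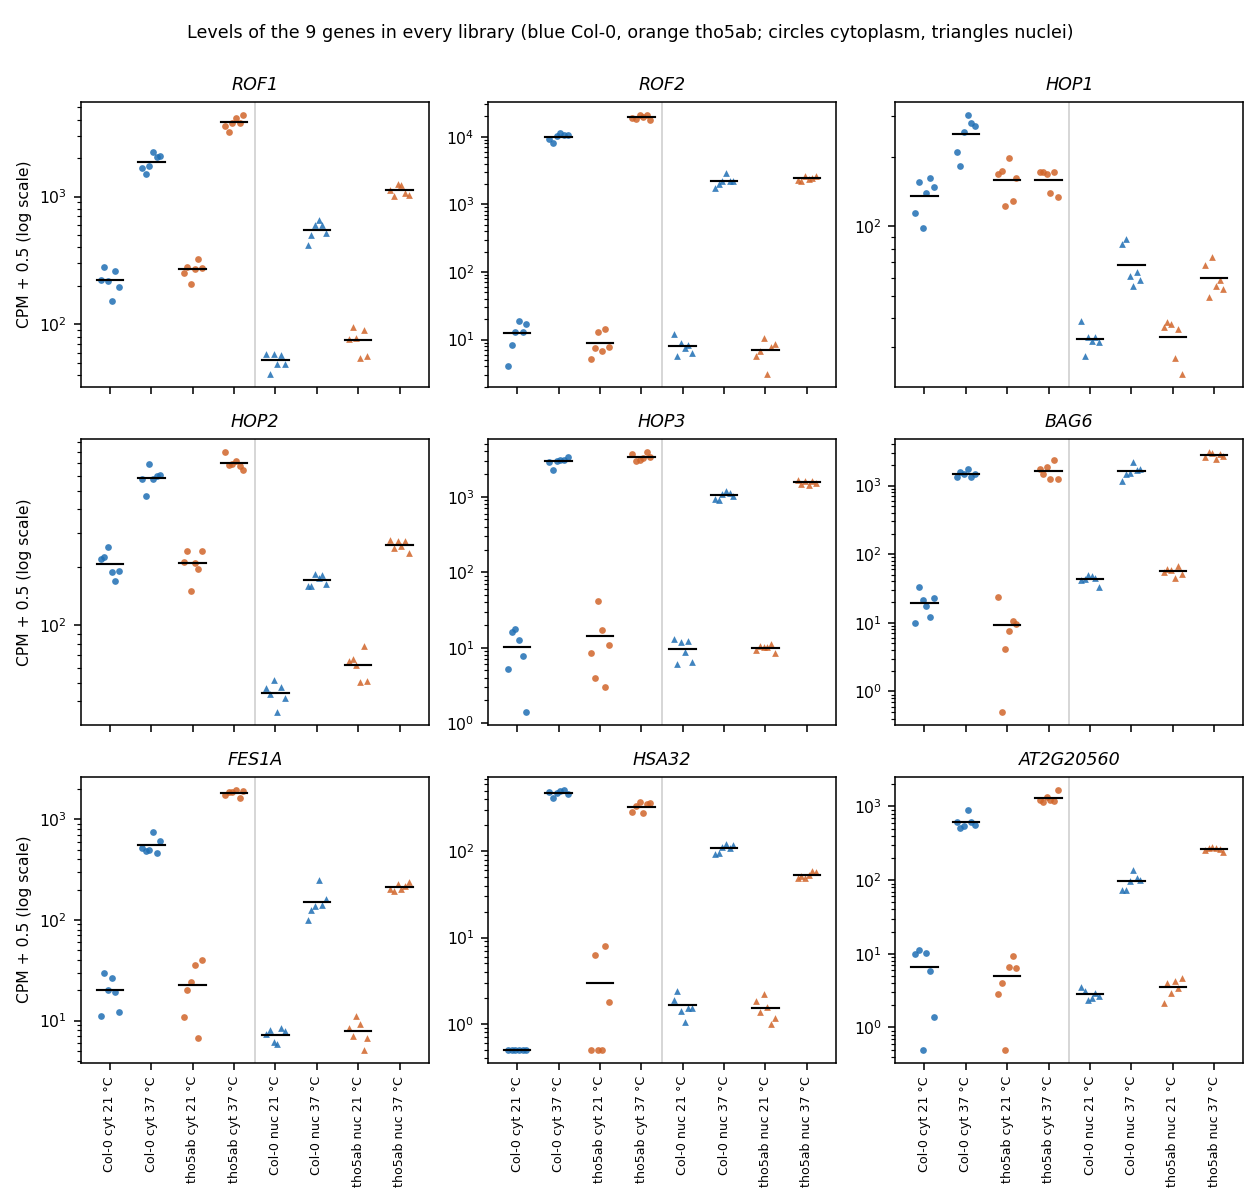
Level of each of the 9 genes in every library, as CPM + 0.5 on a log axis, by genotype, fraction and temperature; points are libraries, black lines are the means of 6 libraries plus the same 0.5, and each panel has its own range. Heated libraries lie above unheated ones of the same genotype and fraction in every panel, except for HOP1 in tho5ab cytoplasm, where both groups overlap.

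Heat raised all 9 genes in Col-0 cytoplasm and all 9 in Col-0 nuclei, with no overlap between heated and unheated libraries. Overlap, here and below, only describes the libraries of a gene, since its share over all genes was not computed. Of all genes tested, 24.7% rose and 19.7% fell in cytoplasm, and 21.9% rose in nuclei. The median log2 change of the 9 was 6.28 in cytoplasm and 5.24 in nuclei, against 0.07 and -0.06 over all genes tested. In tho5ab 8 rose in cytoplasm (22.2% of all genes rose) and 9 in nuclei (25.1%), with medians of 7.20 and 5.64 against -0.01 and -0.07. These 35 calls held under every alternative tried.

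ROF1 and ROF2 are large FK506-binding proteins with peptidyl-prolyl isomerase and tetratricopeptide domains that bind HSP90, and in Arabidopsis they act in the duration of acquired thermotolerance through HSFA2. ROF1, of 13 exons at chr3:9188096-9191630, had 153, 219.5 and 281 CPM in the lowest, median and highest Col-0 cytoplasm library at 21 °C and 1492, 1887 and 2225 CPM at 37 °C. It rose 8.45-fold (log2 3.08 ± 0.15, adjusted p = 1.2e-23), and in nuclei from 51.9 ± 7.36 to 548 ± 85.4 CPM (log2 3.40 ± 0.15, adjusted p = 2.1e-25). ROF1 was thus an abundant mRNA before heat and a moderate riser.

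ROF2, on the reverse strand at chr5:19690461-19693845, had 3.57, 12.5 and 18.5 CPM in Col-0 cytoplasm at 21 °C and 8168, 10343 and 11218 CPM at 37 °C. The change was 838-fold (log2 9.71 ± 0.28, adjusted p = 1.1e-33), on 68 counts in the unheated group. In nuclei it went from 7.62 ± 2.22 to 2221 ± 399.7 CPM (log2 8.18 ± 0.25, adjusted p = 4.0e-32). Per kb, ROF2 supplied 5.69 ± 3.5% of the ROF1 and ROF2 mRNA in Col-0 cytoplasm at 21 °C and 84.8 ± 0.679% at 37 °C. The transcripts of the pair are 76.2% identical over 1571 aligned bases, below the 95% set here for reads that counting could split.

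HOP1, HOP2 and HOP3 carry tetratricopeptide repeats that hold the tails of HSP70 and HSP90, and in Arabidopsis HOP3 is the member known for its heat induction. HOP3, on the reverse strand at chr4:7338018-7341363, had 0.901, 9.75 and 17.3 CPM in Col-0 cytoplasm at 21 °C and 2234, 3019.5 and 3392 CPM at 37 °C. That was a log2 change of 8.28 ± 0.35 (adjusted p = 5.1e-26), and in nuclei the level went from 9.21 ± 2.99 to 1045 ± 118 CPM (log2 6.82 ± 0.31). HOP3 shares 163 bases with PME1 on the opposite strand, and PME1 had 16.2 ± 8.35 CPM in the heated Col-0 cytoplasm libraries. At 21 °C PME1 had 23.7 ± 4.75 CPM in Col-0 cytoplasm and 21 ± 3.33 CPM in Col-0 nuclei, above the means of HOP3. Reads in the shared bases cannot be told apart where strand was not kept, and their part in the unheated HOP3 levels was not tested.

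HOP2, at chr1:23230922-23233543, had 169, 205 and 253 CPM in Col-0 cytoplasm at 21 °C and 467, 586 and 692 CPM at 37 °C, a rise of log2 1.49 ± 0.12 (adjusted p = 7.4e-15). HOP1, at chr1:4172035-4174730, had 97.6, 143 and 161 CPM and then 182, 263 and 305 CPM, a rise of log2 0.89 ± 0.15 (adjusted p = 5.0e-06). Both were called in nuclei too, HOP2 at log2 1.95 ± 0.12 and HOP1 at log2 1.08 ± 0.15. HOP2 shares 110 bases with SCO1 on the opposite strand, a gene at 938 ± 80.3 CPM in unheated Col-0 cytoplasm and 651 ± 88.9 CPM in heated, so reads there cannot be told apart where strand was not kept.

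The 3 HOP genes together changed their make-up. Per kb, HOP3 supplied 1.96 ± 1.24% of HOP mRNA in Col-0 cytoplasm at 21 °C and 71.8 ± 1.42% at 37 °C, HOP2 went from 58.8 ± 7.01% to 19.7 ± 1.54%, and HOP1 from 39.3 ± 7.54% to 8.56 ± 0.906%. The HOP3 share went from 2.85 ± 3.49% to 74 ± 2.01% in tho5ab cytoplasm. Nuclei of Col-0 went from 7.91 ± 1.89% to 75.9 ± 2.44%, and those of tho5ab from 6.86 ± 0.889% to 78 ± 0.775%. These shares compare genes within a library and do not depend on how libraries were scaled. Like all levels per kb, they do depend on the exon lengths, 1944 bases for HOP1, 1983 for HOP2 and 2723 for HOP3. The last joins the exons of 2 annotated transcripts, and which of them the reads came from was not tested. At 37 °C the ranges of the 4 heated groups lay between 69.5% and 79.4%.

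**Figure D2:**
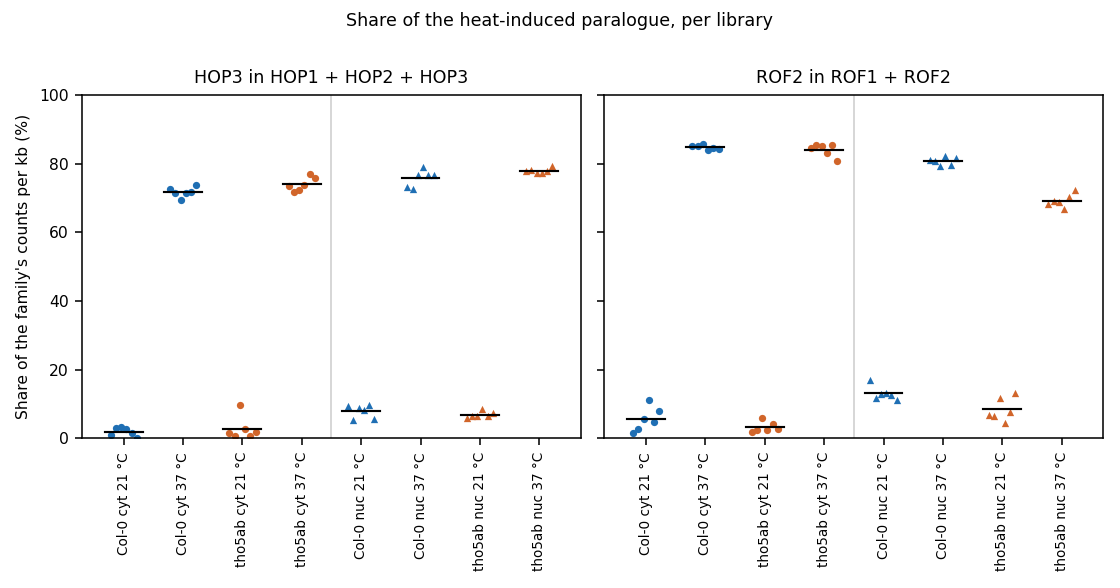
Share of HOP3 in the summed counts per kb of HOP1, HOP2 and HOP3, and of ROF2 in those of ROF1 and ROF2, in percent for each library; points are libraries and black lines the means of 6. HOP3 lies below 10% in every unheated library and at 69.5% or more in every heated one, and ROF2 in tho5ab nuclei at 37 °C lies below the other heated groups, at 66.7 to 72.3%.

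FES1A is a cytosolic nucleotide exchange factor of HSP70 that keeps HSP70 from degradation in heated Arabidopsis. At chr3:2870970-2873332, it had 10.7, 19.3 and 29.5 CPM in Col-0 cytoplasm at 21 °C and 459, 507 and 742 CPM at 37 °C. It rose by log2 4.83 ± 0.26 in cytoplasm (adjusted p = 9.2e-22) and by 4.47 ± 0.24 in nuclei, where it went from 6.76 ± 1.04 to 151 ± 50.9 CPM.

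BAG6, a large calmodulin-binding protein with a BAG domain that binds HSP70, lies at chr2:18986133-18990220. It had 9.53, 19.1 and 32.5 CPM in Col-0 cytoplasm at 21 °C and 1329, 1480.0 and 1720.5 CPM at 37 °C (log2 6.28 ± 0.28, adjusted p = 2.4e-25). In nuclei it had 32.9, 43.9 and 49.8 CPM and then 1147, 1617 and 2225 CPM (log2 5.24 ± 0.25). Per kb of exon, BAG6 came after ROF2 in heated Col-0 nuclei, at 433 ± 95.5 CPM per kb, with libraries that overlapped those of HOP3 at 384 ± 43.2 CPM per kb.

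AT2G20560, on the reverse strand at chr2:8848130-8850111, had 0, 7.46 and 10.8 CPM in Col-0 cytoplasm at 21 °C and 502, 583 and 884 CPM at 37 °C (log2 6.68 ± 0.31, adjusted p = 1.8e-24). Its highest heated library, replicate 4, stood apart from the next at 612 CPM. In nuclei the gene rose from 2.35 ± 0.433 to 98.2 ± 23.9 CPM (log2 5.36 ± 0.26). It shares 39 bases with a pseudogene on the opposite strand and its transcript is 77.3% identical to that of AT4G28480, another J-domain gene, over 1108 bases.

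HSA32, known in Arabidopsis for the persistence of acquired thermotolerance after recovery, lies at chr4:11340362-11342075. It had 0 counts in the 6 Col-0 cytoplasm libraries at 21 °C, which allows a level of up to 0.526 CPM (3 counts over the group, counting error only), and 415, 485 and 519 CPM after heat, at least 906-fold higher. In Col-0 nuclei the deeper libraries held 150 counts at 21 °C, 0.554, 1.03 and 1.91 CPM, and the level rose to 108 ± 12.4 CPM (log2 6.46 ± 0.26, adjusted p = 2.9e-25). A neighbour on the same strand, AT4G21323, shares 113 bases with HSA32 and had 3.94 ± 0.72 CPM in heated Col-0 nuclei. At 21 °C AT4G21323 had 1.33 ± 0.503 CPM in Col-0 nuclei, close to the 1.14 ± 0.467 CPM of HSA32, and 0 CPM in Col-0 cytoplasm. The part of reads from the shared bases in the unheated nuclear level of HSA32 was not tested. With HSA32 at its bound, log2 9.82, the median of the 9 genes in Col-0 cytoplasm was still 6.28.

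**Figure D3:**
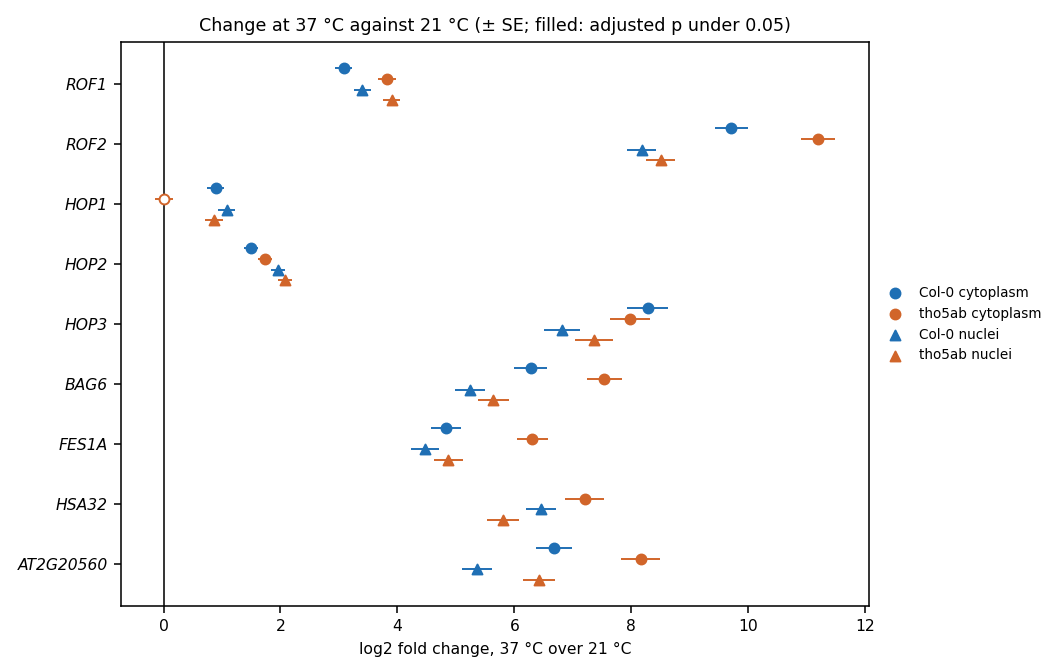
Log2 fold change at 37 °C over 21 °C of the 9 genes in both genotypes and fractions, with bars of 1 approximate SE; filled points passed the threshold. Col-0 cytoplasm of HSA32 is not drawn, since all its unheated libraries were at 0, and HOP1 in tho5ab cytoplasm is the open point at 0.01.

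In tho5ab cytoplasm HOP1 was the exception to the rise. It had 122, 165 and 198 CPM at 21 °C and 133, 170.1 and 172 CPM at 37 °C, with overlapping libraries (log2 0.01 ± 0.15, adjusted p = 0.99). The heat change of HOP1 in cytoplasm was lower in tho5ab than in Col-0 by log2 0.88 ± 0.22 (interaction -0.88, adjusted p = 0.013). This difference missed the threshold without replicate 5 (-0.79, adjusted p = 0.063), with only the 4 groups compared (-0.84, 0.052) and without the 16 libraries with high opposite-strand counts (-0.96, 0.071).

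Between the genotypes at 21 °C 2 of the 9 genes were called in cytoplasm, against 3.58% of all genes. In nuclei 2 of the 9 were called, which is near the share over all genes, 21.5% (12.7% higher). In nuclei ROF1 was higher in tho5ab, at 74.9 ± 16.8 CPM against 51.9 ± 7.36 CPM (log2 0.53 ± 0.14, adjusted p = 0.0033), and so was HOP2, at 61.6 ± 10.4 against 44 ± 5.59 CPM (log2 0.49 ± 0.12, adjusted p = 0.0017). For both the highest Col-0 library lay within the range of tho5ab, and without replicate 2 the ROF1 call was lost (log2 0.39, adjusted p = 0.06). Markers of other cell types also differed between the genotypes in nuclei at 21 °C, with no overlap. The 4 guard cell markers summed to 139 to 197 CPM in Col-0 and 229 to 475 CPM in tho5ab, the 5 root markers to 387 to 562 and 188 to 245 CPM and the 3 phloem markers to 64.9 to 96.8 and 56.2 to 62.5 CPM, and none of these markers was at 0. In cytoplasm at 21 °C the root markers summed to 258 to 619 CPM in Col-0 and 139 to 246 CPM in tho5ab. Their part in the genotype differences was not tested.

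In cytoplasm at 21 °C the calls rested on few counts. BAG6 had 9.53, 19.1 and 32.5 CPM in Col-0 and 0, 8.16 and 23.1 CPM in tho5ab, on 110 and 52 counts (log2 -1.11 ± 0.32, adjusted p = 0.035). The libraries overlapped and the call was lost when any of replicates 2 to 7 was left out, most of all replicate 2 (log2 -0.64, adjusted p = 0.24), or when only these groups were fitted (adjusted p = 0.46). HSA32 had 0 counts in Col-0 and 13 counts in 3 of the 6 tho5ab libraries. Its tho5ab mean of 2.43 ± 3.35 CPM was 4.62-fold the 0.526 CPM allowed in Col-0, which is no lower bound on so few counts. HSA32 was called higher in tho5ab (adjusted p = 0.012). That call was lost without replicate 2 (adjusted p = 0.061) and without the 16 libraries with high opposite-strand counts (adjusted p = 0.13).

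At 37 °C the genotypes parted, and not in 1 direction. In cytoplasm FES1A, AT2G20560, ROF1 and ROF2 were higher in tho5ab and HOP1 was lower, 5 of the 9 against 14.1% of all genes (6.37% higher). In nuclei AT2G20560, ROF1, BAG6 and HOP2 were higher and HSA32 was lower, 5 of the 9 against 34.4% of all genes (18.5% higher). The medians over the 9 were 0.26 and 0.58, against -0.06 and -0.08 over all genes. All of these 10 calls held under every alternative tried. TMM factors in heated nuclei were 1.56 to 1.62 in Col-0 and 1.24 to 1.34 in tho5ab. In heated cytoplasm they were 0.60 to 0.65 and 0.45 to 0.64. The sizes of the genotype differences depend on this scaling, to which DESeq2's size factors were the only alternative. In heated nuclei the guard cell markers summed to 89.5 to 150.2 CPM in Col-0 and 188 to 259.6 CPM in tho5ab, the leaf mesophyll markers to 1708 to 1966 and 2098 to 3074 CPM and the root markers to 64 to 122 and 35.5 to 63.6 CPM, none overlapping and none with a marker at 0, and their part was not tested. In heated cytoplasm the sums of all 3 lists overlapped between the genotypes.

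FES1A had the widest gap. It had 459, 507 and 742 CPM in heated Col-0 cytoplasm and 1641, 1881 and 1962 CPM in heated tho5ab cytoplasm, with no overlap (log2 1.73 ± 0.21, 3.33-fold, adjusted p = 4.6e-08). In nuclei it had 98.9, 138 and 247 CPM in Col-0 and 191, 210.0 and 238 CPM in tho5ab. There the groups overlapped, and the change of log2 0.50 ± 0.20 missed the threshold (adjusted p = 0.053). It passed with only the groups compared (adjusted p = 0.015), with the covariate for the high opposite-strand libraries (0.027) and without replicate 4 (log2 0.75, 0.0047). The genotype difference was smaller in nuclei than in cytoplasm (interaction -1.24 ± 0.29, adjusted p = 0.0017).

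ROF2 showed the same order. In heated cytoplasm it had 8168, 10343 and 11218 CPM in Col-0 and 17704, 19180.1 and 21242 CPM in tho5ab, with no overlap (log2 0.96 ± 0.18, adjusted p = 0.00019). In heated nuclei the levels were 2221 ± 399.7 and 2418 ± 177 CPM (log2 0.12 ± 0.18, adjusted p = 0.64), a change whose sign turned with DESeq2's size factors (-0.01). The difference between fractions (interaction -0.84 ± 0.26, adjusted p = 0.019) was lost without replicate 2 (-0.80, adjusted p = 0.06) or replicate 4 (-0.70, adjusted p = 0.073).

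ROF1 and AT2G20560 were higher in tho5ab in both fractions. ROF1 had 1492, 1887 and 2225 CPM in Col-0 cytoplasm and 3222, 3774 and 4385 CPM in tho5ab (log2 1.03 ± 0.14, adjusted p = 3.7e-07). In nuclei it had 421, 555 and 657 against 1009, 1096 and 1256 CPM (log2 1.03 ± 0.14, adjusted p = 2.8e-08). No libraries overlapped in either fraction.

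AT2G20560 had 502, 583 and 884 CPM in heated Col-0 cytoplasm and 1135, 1237 and 1688 CPM in tho5ab (log2 1.08 ± 0.21, adjusted p = 0.00036). In nuclei it had 73.5, 99.4 and 138 against 239, 266 and 284 CPM (log2 1.43 ± 0.22, adjusted p = 4.2e-07). The groups did not overlap in either fraction.

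HOP2 and BAG6 passed the threshold in nuclei. HOP2 had 159.6, 169.7 and 184 CPM in heated Col-0 nuclei and 237, 265 and 275 CPM in tho5ab (log2 0.61 ± 0.12, adjusted p = 3.7e-05), and BAG6 had 1147, 1617 and 2225 against 2400.3, 2806 and 3069 CPM (log2 0.76 ± 0.21, adjusted p = 0.0034). In cytoplasm HOP2 differed by log2 0.26 ± 0.12 (adjusted p = 0.14) and BAG6 by 0.15 ± 0.21 (adjusted p = 0.7). Neither gene's genotype difference was shown to differ between the fractions in the main fit (adjusted p = 0.16 for HOP2 and 0.17 for BAG6). That of BAG6 passed with only the groups compared (interaction 0.61, adjusted p = 0.032).

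HSA32 and HOP1 went the other way. HSA32 had 92, 111 and 122 CPM in heated Col-0 nuclei and 48.2, 52.3 and 58.6 CPM in tho5ab, with no overlap (log2 -1.03 ± 0.20, adjusted p = 5.0e-05). In cytoplasm it had 415, 485 and 519 CPM against 281, 341 and 373 CPM, also without overlap, but the change of log2 -0.53 ± 0.20 missed the threshold (adjusted p = 0.071). It passed with only the groups compared (adjusted p = 0.017), with the covariate (0.035) and by the DESeq2 Wald test (0.00021). HOP1 in heated cytoplasm had 182, 263 and 305 CPM in Col-0 and 133, 170.1 and 172 CPM in tho5ab (log2 -0.66 ± 0.15, adjusted p = 0.0023).

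HOP3 was close to the line. In heated nuclei it had 912, 1057 and 1209 CPM in Col-0 and 1454, 1572 and 1651 CPM in tho5ab, with no overlap, and its change of log2 0.58 ± 0.24 had an adjusted p of 0.054. It passed under 7 alternatives, among them the DESeq2 Wald test (log2 0.45, adjusted p = 0.026). In heated cytoplasm it stood at 2937 ± 384 and 3390.1 ± 353 CPM (log2 0.21 ± 0.24, adjusted p = 0.62).

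**Figure D4:**
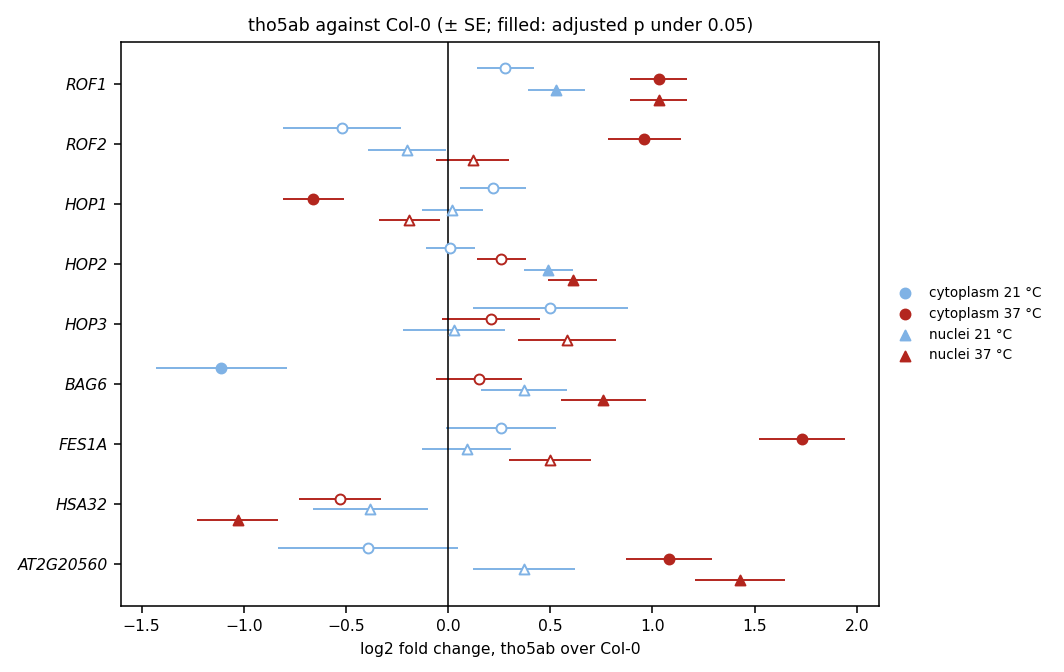
Log2 fold change of tho5ab over Col-0 for the 9 genes in both fractions at both temperatures, with bars of 1 approximate SE; filled points passed the threshold. Cytoplasm at 21 °C of HSA32 is not drawn, since all Col-0 libraries were at 0, and at 37 °C FES1A in cytoplasm has the highest value, 1.73, and HSA32 in nuclei the lowest, -1.03.

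The heat changes of the genotypes were also compared with each other. In cytoplasm 6 of the 9 interactions passed the threshold, against 4.02% of all genes. The log2 heat change was higher in tho5ab for FES1A, by 1.48 ± 0.34 (adjusted p = 0.0082), ROF2, by 1.47 ± 0.34 (0.0082), BAG6, by 1.26 ± 0.38 (0.045), and ROF1, by 0.75 ± 0.20 (0.021), and lower for HOP1 and HSA32. That of ROF2 held under every alternative tried. The FES1A value fell short without replicate 2 (1.23, adjusted p = 0.076) and without the 16 libraries with high opposite-strand counts (1.26, 0.058), and that of ROF1 without replicate 1, 2 or 5 (0.67 to 0.71, 0.063 to 0.074). BAG6 fell short without any of replicates 2 to 7 and its value was 0.84 without replicate 2. It also fell short with no filter on low counts (1.25, adjusted p = 0.057) and with only the groups compared (1.29, 0.16). For HSA32 the fitted value rests on the group with no count and has no interpretable size, and its call ended without the 16 libraries (adjusted p = 0.06).

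In nuclei 0 of the 9 interactions passed by edgeR, where 3.69% of all genes did. At an unadjusted p under 0.05 there were 2, and the DESeq2 Wald test called 1, AT2G20560 (0.98, adjusted p = 0.0026). In the edgeR fit AT2G20560 had 1.06 ± 0.33 (adjusted p = 0.058) and ROF1 0.50 ± 0.19 (adjusted p = 0.18).

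Nuclei and cytoplasm differed in the relative level of most of the 9 genes. In Col-0 at 21 °C 6 were lower and 2 higher in nuclei, where 28% and 38.9% of all genes were, and at 37 °C 8 were lower and 0 higher, where 28.9% and 32.6% were. In tho5ab 5 were lower and 1 higher at 21 °C (27.4% and 40.5% of all genes), and 8 lower and 1 higher at 37 °C (26.9% and 37%). The medians of the 9, nuclei over cytoplasm, ran from -1.87 to -1.26, against 0.24 to 0.48 over all genes. With DESeq2's size factors those all-gene medians were 0.74 to 0.85, so the values below are best read against them.

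ROF1, HOP1 and HOP2, the genes abundant in unheated cytoplasm, were relatively higher in cytoplasm in all 4 conditions. ROF1 was lower in nuclei by log2 1.77 to 2.09 (-2.09 ± 0.14 in Col-0 at 21 °C), HOP1 by 1.43 to 2.28 and HOP2 by 1.42 to 2.24, with no overlap of libraries in any of the 4 comparisons. ROF2 in Col-0 was near even at 21 °C, with 11.8 ± 5.45 CPM in cytoplasm and 7.62 ± 2.22 CPM in nuclei (log2 -0.63 ± 0.24, adjusted p = 0.018), a call that ended under 6 alternatives, among them without the 16 libraries with high opposite-strand counts (-0.39, adjusted p = 0.25), and far higher in cytoplasm at 37 °C (-2.17 ± 0.19, adjusted p = 1.2e-14). HOP3 was at -0.03 ± 0.33 at 21 °C (adjusted p = 0.94) and -1.49 ± 0.24 at 37 °C (adjusted p = 6.4e-07).

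Whether the heat change differed between the fractions was tested as an interaction, nuclei minus cytoplasm. In Col-0 5 of the 9 passed, all lower in nuclei, against 16% of all genes in either direction. ROF2 had -1.53 ± 0.30 (adjusted p = 0.00016), HOP3 -1.46 ± 0.41 (0.0087), AT2G20560 -1.32 ± 0.40 (0.016), BAG6 -1.04 ± 0.33 (0.022), and HSA32 was called as well with a size set by its empty group. The values of HOP3, BAG6 and AT2G20560 lost the call without replicate 5 (adjusted p = 0.063, 0.083 and 0.063), and those of HOP3 and BAG6 also without replicate 1 (0.082 and 0.07). BAG6 fell short besides without replicate 3 and without the 16 libraries with high opposite-strand counts (-0.86, 0.12), and AT2G20560 with only the groups compared (-1.09, 0.057).

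In tho5ab 6 passed, against 17% of all genes. They were ROF2 at -2.69 ± 0.31 (adjusted p = 4.7e-09), BAG6 at -1.90 ± 0.35 (7.6e-05), AT2G20560 at -1.74 ± 0.41 (0.0019), FES1A at -1.44 ± 0.32 (0.00097), HSA32 at -1.39 ± 0.50 (0.046) and, in the other direction, HOP1 at 0.85 ± 0.21 (0.0035). Without the 16 libraries with high opposite-strand counts FES1A no longer passed (-0.63, adjusted p = 0.2). HSA32 fell short under 10 of the 15 alternatives, down to -0.90 without replicate 4, and was -1.07 without the 16 libraries (adjusted p = 0.25).

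BAG6 alone of the 9 genes was called higher in nuclei by a fold that rests on more than a few counts. In Col-0 at 21 °C it had 9.53, 19.1 and 32.5 CPM in cytoplasm and 32.9, 43.9 and 49.8 CPM in nuclei, with no overlap (log2 1.17 ± 0.25, adjusted p = 5.4e-05). In tho5ab at 21 °C it had 0, 8.16 and 23.1 CPM in cytoplasm and 44.6, 56.1 and 66.3 CPM in nuclei (log2 2.65 ± 0.28, adjusted p = 5.9e-12). At 37 °C the difference was 0.14 ± 0.21 in Col-0 (adjusted p = 0.59), which became 0.63 with DESeq2's size factors (adjusted p = 0.0057), and 0.75 ± 0.21 in tho5ab (adjusted p = 0.0018). The nuclear excess of BAG6 at 21 °C was greater in tho5ab by 1.48 ± 0.38 (adjusted p = 0.0097), but not without replicate 2 (0.98, adjusted p = 0.12) or with only the groups compared (1.42, adjusted p = 0.065).

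HSA32 gave opposite signs by temperature in Col-0, though its level in nuclei at 21 °C was close to that of AT4G21323, which shares bases with it. At 21 °C its nuclear mean of 1.14 ± 0.467 CPM was 2.17-fold the 0.526 CPM allowed in cytoplasm, where no count was seen. At 37 °C nuclei held 108 ± 12.4 CPM against 477 ± 36.6 CPM in cytoplasm (log2 -2.14 ± 0.21, adjusted p = 1.2e-12). In tho5ab at 21 °C it was lower in nuclei (log2 -1.26 ± 0.51, adjusted p = 0.026), on 13 counts in cytoplasm, and the call ended without replicate 2, without replicate 6 and with DESeq2's size factors. FES1A and AT2G20560 at 37 °C were higher in cytoplasm in both genotypes, FES1A at -1.87 ± 0.21 in Col-0 and -3.11 ± 0.22 in tho5ab and AT2G20560 at -2.65 ± 0.22 and -2.30 ± 0.22.

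**Figure D5:**
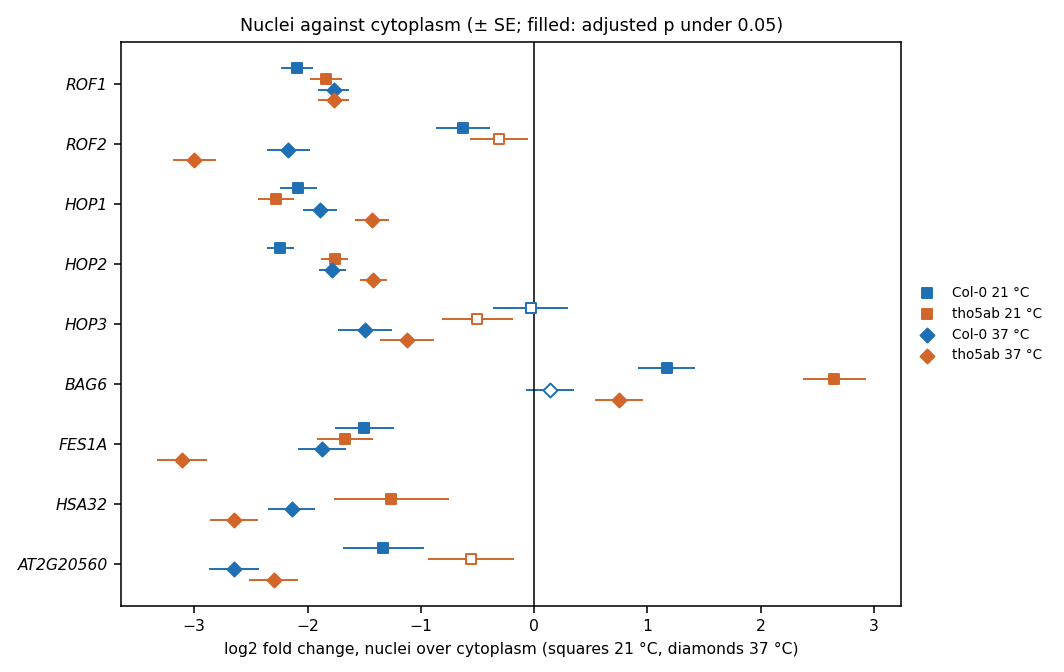
Log2 fold change of nuclei over cytoplasm for the 9 genes in both genotypes at both temperatures, with bars of 1 approximate SE; filled points passed the threshold. Col-0 at 21 °C of HSA32 is not drawn, since all its cytoplasmic libraries were at 0, and BAG6 is to the right of 0 in all 4 conditions, from 0.14 to 2.65, while ROF1, HOP1 and HOP2 are to the left in all 4.

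Interactions of genotype with fraction passed for 2 of the 9 genes at 21 °C (BAG6 and HSA32; 6.4% of all genes) and for 2 at 37 °C (FES1A and ROF2; 14.7%). In heat the genotype difference of FES1A and ROF2 was greater in cytoplasm. For ROF1 the interaction at 37 °C was 0.01 ± 0.19, with a 95% interval of -0.37 to 0.38.

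The other members of the same families and the chaperones they serve put these values in context. Among the large immunophilins outside the 9 genes, SQN, a cyclophilin that binds HSP90, rose with heat in Col-0 cytoplasm from 15.9 to 74.2 CPM (log2 2.23 ± 0.22), TWD1 fell (log2 -0.96 ± 0.32) and PAS1 was not called (-0.30 ± 0.22). In heated cytoplasm SQN was lower in tho5ab (log2 -1.09 ± 0.21, adjusted p = 0.00018), where ROF1 and ROF2 were higher.

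Of the 6 other BAG genes 0 rose and 2 fell with heat in Col-0 cytoplasm by edgeR, BAG1 (log2 -1.40 ± 0.32) and BAG7 (-0.48 ± 0.19), with a median of -0.12, where 24.7% of all genes rose and 19.7% fell. BAG5 was called higher in Col-0 nuclei at 37 °C (log2 1.38 ± 0.39, from 2.09 to 5.38 CPM). Of the other FES1 genes, FES1C was called in Col-0 cytoplasm (log2 2.37 ± 0.78, from 0.968 to 5.44 CPM) and FES1B was not (0.28 ± 0.22). In heated cytoplasm FES1B differed between genotypes by log2 -0.24 ± 0.22 (adjusted p = 0.51), whereas FES1A was higher in tho5ab.

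Of 9 other cytosolic J-domain genes 8 were tested, and in Col-0 cytoplasm 3 rose with heat (24.7% of all genes), with a median of 0.86. J3 rose by log2 2.06 ± 0.14 and J2 by 1.20 ± 0.13. In heated cytoplasm 3 were higher (6.37% of all genes) and 0 lower in tho5ab by edgeR, among them AT4G28480 (log2 1.14 ± 0.16) and J2 (0.96 ± 0.13), and in heated nuclei 6 were higher (18.5% of all genes). Of 9 further co-chaperones of HSP90 and HSP70, 6 rose in Col-0 cytoplasm (24.7% of all genes) with a median of 1.36, led by the AHA1-like gene AT3G12050 (log2 3.29 ± 0.17), an activator of HSP90 ATPase, and TPR10 (3.02 ± 0.17). In heated nuclei P23-1 was higher in tho5ab by log2 2.52 ± 0.18 and TPR10 lower (-0.41 ± 0.14).

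The partner chaperones, 10 cytosolic HSP70, HSP90 and HSP101 genes, moved most widely. In Col-0 cytoplasm 9 rose (24.7% of all genes) and HSP90.4 fell (log2 -0.72 ± 0.16), with a median of 2.16, and HSP101 went from 22.1 to 14728 CPM. In tho5ab all 10 were higher than in Col-0 in nuclei at 21 °C (median 1.12) and at 37 °C (median 1.57), and 9 in cytoplasm at 37 °C (median 1.45), where 12.7%, 18.5% and 6.37% of all genes were called higher and the all-gene medians were -0.03, -0.08 and -0.06. HSP70-4 in heated nuclei reached 22106 CPM in tho5ab against 2276 CPM in Col-0 (log2 3.28 ± 0.15). The HSP70 and HSP90 genes are known to include close copies, whose reads counting could split, so their single values are uncertain.

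Of 7 other thermotolerance genes, 3 rose and 1 fell with heat in Col-0 cytoplasm, with a median of 0.05, against 24.7% and 19.7% of all genes. MBF1C, a transcriptional coactivator, rose by log2 6.68 ± 0.27 and BOB1 by 2.64 ± 0.18, while HOT5 fell (-0.80 ± 0.12). In heated nuclei MBF1C was higher in tho5ab (log2 3.26 ± 0.22) and FTSH11 lower (-1.0 ± 0.16), the direction of HSA32.

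The patterns of the 9 genes over the 48 libraries were closest to the following genes, by Pearson r of log2 CPM among 5395 protein-coding genes with a symbol. These are descriptions over libraries that share heat, fraction and depth. ROF2 was most like ATHSP22.0 (r = 0.992) and HSP101 (0.988), AT2G20560 like HSP101 (0.966), and HOP3 and HSA32 like APX2, a cytosolic ascorbate peroxidase (0.981 and 0.958). ROF1 and FES1A had the same 3 nearest genes, AtCDC48B (0.980 and 0.978), CLPB3 (0.979 and 0.975) and Hsp70-15 (0.976 and 0.973). BAG6 was nearest to the transcription factors HSFA2 (0.949), BZIP28 (0.945) and HSF4 (0.939). HOP2 was nearest to HSP81-2 (0.981) and HOP1 to CRD1 (0.961), ACP4 (0.960) and RPL34 (0.958). Among the 9, r ran from 0.095 between HOP1 and BAG6 to 0.976 between ROF2 and HOP3.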

How the data were processed

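The deposited file is a table of raw counts per gene with 1 column per library, for 27420 genes and 48 libraries, and 0 columns were left unmapped. Per the submitters' processing notes, the tools were featureCounts, UMI-tools, Picard and STAR 2.7.8a, with TAIR10 as the build; the strand setting is not given in the sources used here. The labels' protocols name NuGEN Universal Plus kits with rRNA depletion, and ERCC spike-ins were added, but the table analysed holds none, so levels were not scaled to them.

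Groups came from the sample labels. In R 4.3.3, edgeR 4.0.16 was run on the counts (TMM, filterByExpr over the 8 groups, 1 mean per group, 48 libraries sharing 1 estimate of spread), and 18 contrasts were tested by quasi-likelihood with Benjamini-Hochberg adjustment over the 17981 genes at 0.05. The SE is the absolute log2 change divided by the square root of F, and 95% intervals take the normal quantile of that SE. A group with no count was given a floor of 3 counts over the group. The fit was also run on simulated counts with known changes in 1 group and equal means in the others. Those counts lack the fraction differences and the high opposite-strand libraries seen here, so they lend no support to the calls. Likeness used log2 CPM with a prior count of 2 and genes with a mean log2 CPM of at least 3. Overlaps came from the TAIR10.1 annotation and similar transcripts from blastn 2.17.0+, at a minimum of 95% identity over 25% of the length, which 0 of the 9 reached.

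The alternatives were edgeR with size factors from DESeq2 1.42.0, DESeq2's Wald test, all genes without a filter, a fit of the compared groups alone, omission of each replicate number, and the replicate block. The 16 libraries with high counts of genes nested on the opposite strand (81 gene pairs, host mean of at least 50 CPM) were given a covariate or omitted, which left 32, and tho5ab replicate 7 at 37 °C was omitted. All 9 genes are named. Of related lists (large immunophilins, BAG, FES1, J-domain, other co-chaperones, partner chaperones, other thermotolerance genes), at most the 2 highest and 2 lowest of a comparison are named. The genes and lists were chosen with earlier results of these data known, so lists are described by counts and medians with no test.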

Additional observations from a re-analysis of the deposited data

Results flagged for a closer look

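Single libraries that lay far from the rest of their group, by Dixon's criterion for 6 values, were 2 in 72 groups of a gene, where chance alone marks about 1 in 20 groups. HOP3 in tho5ab cytoplasm at 21 °C had 40.6 CPM in replicate 4 against 16.5 CPM in the next library. AT2G20560 in heated Col-0 cytoplasm had 884 CPM in replicate 4 against 612 CPM in the next.

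The effect of heat, genotype or fraction differed between groups, by an interaction in the edgeR fit past the adjusted threshold, in 21 of the 54 tests of these genes. The nuclear minus cytoplasmic log2 difference was changed in tho5ab at 21 °C by 1.48 for BAG6 and by -7.84 for HSA32, and at 37 °C by -0.84 for ROF2 and by -1.24 for FES1A. The cytoplasmic heat change was altered in tho5ab by 0.75 for ROF1, 1.47 for ROF2, -0.88 for HOP1, 1.26 for BAG6, 1.48 for FES1A and -7.98 for HSA32. The heat change in nuclei minus that in cytoplasm was, in Col-0, -1.53 for ROF2, -1.46 for HOP3, -1.04 for BAG6, -8.72 for HSA32 and -1.32 for AT2G20560. In tho5ab it was -2.69 for ROF2, 0.85 for HOP1, -1.90 for BAG6, -1.44 for FES1A, -1.39 for HSA32 and -1.74 for AT2G20560. The HSA32 values of -7.84, -7.98 and -8.72 rest on Col-0 cytoplasm at 21 °C, where it had 0 counts, so their size depends on the prior count of the fit and is no bound.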

How the results depend on the processing

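Of 101 values past the threshold over the 18 comparisons of the 9 genes, 81 stayed past it under all 15 alternatives (35 of 35 heat values, 11 of 14 between genotypes, 27 of 31 between fractions and 8 of 21 interactions), 17 lost the call under at least 1, and 0 changed sign. The other 3 (HSA32 and AT2G20560 between fractions in Col-0 and HSA32 in genotype by fraction, at 21 °C) stayed past it wherever fitted, but fell below the filter with only the groups compared. Of all values, 8 were not fitted for that reason, so the lower counts with only these groups at 21 °C rest in part on fewer genes tested. Of 61 values that missed it, 19 passed under at least 1 alternative.

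Counts of genes called moved by over 1.5 times as follows. Between genotypes in cytoplasm at 21 °C the 2 calls became 0 with only the groups compared, 1 without the libraries with high opposite-strand counts and 0 to 2 with a replicate left out, and in nuclei at 21 °C the 2 became 1 to 2. Between fractions in Col-0 at 21 °C 8 became 5 with only the groups compared. For genotype by fraction, 2 became 0 at 21 °C and 4 at 37 °C with only the groups compared, and 1 to 3 and 1 to 2 with a replicate left out. For genotype by heat, the 6 calls in cytoplasm became 3 without the libraries with high opposite-strand counts and 3 to 6 with a replicate left out. The 0 calls in nuclei became 3 with only the groups compared, 1 with the covariate for those libraries, 1 by the DESeq2 Wald test and 0 to 1 with a replicate left out. For heat by fraction in Col-0, 5 became 2 to 5 with a replicate left out. Other causes were not tested.

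Values that changed sign all missed the threshold. With a replicate left out, the ranges were -0.07 to 0.12 for heat on HOP1 in tho5ab cytoplasm; between genotypes in cytoplasm at 21 °C, -0.07 to 0.07 for HOP2, -0.06 to 0.91 for HOP3, -0.13 to 0.47 for FES1A and -0.78 to 0.01 for AT2G20560; in nuclei at 21 °C, -0.32 to 0.02 for ROF2, -0.07 to 0.10 for HOP1, -0.10 to 0.15 for HOP3 and -0.04 to 0.21 for FES1A. Between fractions at 21 °C they were -0.26 to 0.31 for HOP3 in Col-0 and -0.73 to 0.18 in tho5ab. For interactions they were -1.02 to 0.10 for HOP3 and -0.40 to 0.28 for FES1A (genotype by fraction, 21 °C), -0.04 to 0.07 for ROF1 (37 °C), -0.74 to 0.31 for HOP3 (genotype by heat, cytoplasm), -0.27 to 0.01 for HOP1 (genotype by heat, nuclei), -0.06 to 0.31 for HOP1 (heat by fraction, Col-0) and -0.01 to 0.13 for ROF1 (heat by fraction, tho5ab). With DESeq2's size factors in the edgeR fit the values were -0.12 for heat on HOP1, -0.00 for HOP2 in cytoplasm and -0.03 and -0.02 for HOP1 and HOP3 in nuclei between genotypes at 21 °C, -0.01 for ROF2 in nuclei between genotypes at 37 °C, 0.39 for HOP3 (Col-0) and 0.06 for ROF2 (tho5ab) between fractions at 21 °C, and -0.18 for ROF1 in genotype by fraction at 37 °C. The DESeq2 Wald test gave -0.12, -0.03, -0.02, -0.01, 0.40, 0.08 and -0.18 for these results but HOP2, in the same order. Without the libraries with high opposite-strand counts heat on HOP1 was -0.06. Between genotypes at 21 °C HOP3 was -0.34 in cytoplasm and -0.06 in nuclei, and FES1A -0.24 in nuclei. ROF2 between fractions in tho5ab was 0.13, and HOP3 was 0.28 in genotype by fraction at 21 °C and 0.60 in genotype by heat in cytoplasm. Heat on HOP1 was -0.14 with only the groups compared, HOP3 between fractions in Col-0 at 21 °C was 0.07 with no filter, and ROF1 in genotype by fraction at 37 °C was -0.01 with no filter and -0.00 with the covariate.

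DESeq2's size factors moved the median of all genes between fractions to 0.74 to 0.85, and that between genotypes in heated nuclei from -0.08 to -0.21. The replicate number as a block gave 9, 9, 8 and 9 genes in the heat comparisons, ended the HSA32 call in heat by fraction in tho5ab (-1.37, adjusted p = 0.07) and brought HOP2 past the threshold in heat by fraction in Col-0 (0.47, 0.042) and HOP3 between genotypes in heated nuclei (0.70, 0.019), with no other change of call, and HOP1 between genotypes in nuclei at 21 °C, uncalled, turned from 0.02 to -0.00. Same-numbered libraries were not paired, since the labels do not say that they share plants. Their correlations of deviations ran from -0.53 to 0.61 over the 12 pairs of groups. Between fractions the best match of a library bore its own number for 3 of 6 in Col-0 and 4 of 6 in tho5ab, at both temperatures. Between temperatures or genotypes this held for 0 to 2. The block takes 1 term per number over all groups, so pairing of the fractions within a genotype and temperature was not tested. Depth limits the cytoplasmic levels at 21 °C most, where ROF2, HOP3, BAG6, FES1A, AT2G20560 and HSA32 rest on 0 to 60 counts per library.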
